A study of Mus musculus with 6 samples.

Results

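The 10 genes described here carry out or control the making, elongation and desaturation of fatty acids. They were chosen by name, and all 10 of 10 were found among the 13535 genes of the expression table. They were Srebf1, Acly, Acaca, Fasn, Elovl6, Scd2, Fads1, Fads2, Thrsp and Gpd1. Each gene had at least 10 normalized counts in at least 3 of 6 libraries, but so did all 13535 genes of the table. In every library 9 of 10 had that level, Thrsp being the exception, as did 11894 of the 13535 genes.

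Beta-cells from wild-type C57BL/6JRj male mice, 12 weeks old, were sorted by FACS, reaggregated for 5 days, sorted again and sequenced. In pseudo-islets the clusters held alpha-, beta- and delta-cells, and in pseudo-beta they held beta-cells only. Neither group carried a transgene or received a drug, and both were cultured in RPMI medium with serum. There were 3 libraries per group, from experiments numbered 35, 36 and 37, each with 1 library of either kind, and how many mice were pooled for a library is not given in the sources used here. The comparison asked how gene expression in beta-cells depends on the presence of alpha- and delta-cells during culture.

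Fatty acids are built in the cytosol from acetyl-CoA. ATP citrate lyase (Acly) cleaves citrate exported from mitochondria to acetyl-CoA, acetyl-CoA carboxylase (Acaca) turns it into malonyl-CoA, and fatty acid synthase (Fasn) assembles palmitate. Elongases such as Elovl6 add carbons, and desaturases (Scd2, Fads1, Fads2) insert double bonds. The transcription factor SREBP1, encoded by Srebf1, activates much of this programme in liver and fat, where ChREBP (Mlxipl) acts with it in response to glucose. In beta-cells malonyl-CoA also holds back fatty acid oxidation when glucose is high.

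All 10 are protein-coding genes of the mouse genome (GRCm38, GENCODE M21), and 4 of them lie on chromosome 11. Acly (ENSMUSG00000020917) spans 100476353 to 100528000 on the minus strand, and Fasn (ENSMUSG00000025153) spans 120805846 to 120824547 on the same strand. Acaca (ENSMUSG00000020532) spans 84129672 to 84401651 on the plus strand and Srebf1 (ENSMUSG00000020538) spans 60199089 to 60222581 on the minus strand. The desaturases share chromosome 19, with Fads2 (ENSMUSG00000024665, 10062765 to 10101746) and Fads1 (ENSMUSG00000010663, 10182888 to 10196877) separated by 81.14 kb, and Scd2 (ENSMUSG00000025203, 44293674 to 44306864) lying 87.59 kb from its paralog Scd1. Elovl6 (ENSMUSG00000041220) is on chromosome 3 from 129532355 to 129638495, Gpd1 (ENSMUSG00000023019) on chromosome 15 from 99717515 to 99725005, and Thrsp (ENSMUSG00000035686) on chromosome 7 from 97412938 to 97417730.

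Acly and Fasn, which make the precursor and the product of the pathway and differed in opposite directions between experiments (values below), are shown with the 250 bases before their start site, read 5′ to 3′ on the minus strand of GRCm38.p6 from RefSeq. The Acly window is chr11:100528001-100528250 and the Fasn window is chr11:120824548-120824797. Capitals mark GC boxes (GGGCGG or its reverse complement) in Acly and CCAAT boxes (CCAAT or its reverse complement) in Fasn.
Acly: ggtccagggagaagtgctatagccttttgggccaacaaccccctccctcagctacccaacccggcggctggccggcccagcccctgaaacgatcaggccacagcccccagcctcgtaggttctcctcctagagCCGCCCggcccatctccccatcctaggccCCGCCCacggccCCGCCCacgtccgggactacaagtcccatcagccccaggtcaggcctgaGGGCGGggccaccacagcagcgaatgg
Fasn: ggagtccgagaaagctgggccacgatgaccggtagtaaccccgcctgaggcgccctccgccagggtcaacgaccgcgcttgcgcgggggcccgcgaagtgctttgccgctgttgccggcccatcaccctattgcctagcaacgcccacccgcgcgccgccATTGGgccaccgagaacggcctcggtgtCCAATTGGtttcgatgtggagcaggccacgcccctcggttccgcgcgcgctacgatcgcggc
The Acly window held 4 GC boxes, which start at 117, 88, 76 and 27 bases before the start site, and no CCAAT box. The Fasn window held 3 CCAAT boxes, starting at 90, 62 and 59 bases before the start site, the last 2 of which overlap, and no GC box. On either strand, a CCAAT box was present in 33.8% and a GC box in 32.7% of 32851 RefSeq windows of this length. Neither window held the E-box CACGTG, found in 6.02% of windows, or the sterol regulatory element letters TCACNCCAC, found in 1.05%. GC content was 68.8% for Acly and 69.2% for Fasn. These matches describe letters in these windows and were not tested for binding. The 2 genes were picked with their expression values known, and a link between the letters and the differences between experiments was not tested.

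Normalized counts summed to between 17994346 and 19635287 per library, and libraries correlated at 0.941 to 0.962 across genes. All 9 of 9 beta-cell markers were in the table, with a summed level of 6960910 to 7703340 normalized counts in pseudo-beta and 7219340 to 8335750 in pseudo-islets. Of 12 alpha-cell markers 7 were in the table, summing to 9886 to 12648 in pseudo-islets and 6151 to 7194 in pseudo-beta. Their log2 fold changes (pseudo-islets over pseudo-beta) were positive for 6 and negative for 1, from -1.14 to 7.52 (median 0.38). Glucagon (Gcg) had 941 to 2094 normalized counts in pseudo-islets and 0 to 36.1 in pseudo-beta. Of 8 delta-cell markers 4 were in the table (615 to 829 against 481 to 560), and somatostatin (Sst) had 146 to 210.2 against 0 to 4.74. The log2 fold changes of these 4 ran from -0.05 to 6.66, with a median of 0.12. The alpha-cell regulator Irx2 and the delta-cell regulator Hhex were not in the table. PP-cell markers (3 of 4) summed to 1331 to 5935 against 662 to 2749, and immune-cell markers (2 of 10, almost all C1qa) to 1656 to 2675 against 988 to 1416. No acinar, stromal or endothelial marker was in the table (12, 12 and 8 looked for). Absence from the table does not mean no reads, as every gene in it reached the level given at the start. The part of other cell types in the differences below was not tested.

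No gene of the set passed the test between beta-cells of pseudo-islets and of pseudo-beta. With limma over all genes and a threshold of 0.05 on the adjusted p, 0 of 10 members were called, against 0.0591% of all genes (8 of 13535). With the experiment as a replicate block, 0 of 10 were called again, against 0.539% of all genes. At an unadjusted threshold of 0.05, 0 of 10 passed without the block, against 731 of 13535 genes. With the block 2 of 10, Acly and Elovl6, passed, against a background of 11.9% of all genes. Which members passed depended on the settings of the block fit. Fasn and Scd2 passed without experiment 35 (1479 of all genes passed), Acly alone without 36 (1392 of all genes) and Elovl6 alone without 37 (1185). With rescaling (1617 of all genes) or with one prior variance (1136), 0 of 10 passed. The 2 groups of libraries overlapped for all 10 members. Of all genes 10.8% had groups that did not overlap, so 0 of 10 is near that share. Fitted differences were positive (pseudo-islets higher) for 6 members and negative for 4, and the median log2 fold change was 0.16 beside 0.01 for all genes. With 3 libraries per group the exact permutation test cannot go below p = 0.1, and it gave 0.3 to 0.9 for the members (two-sided).

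**Figure D1:**
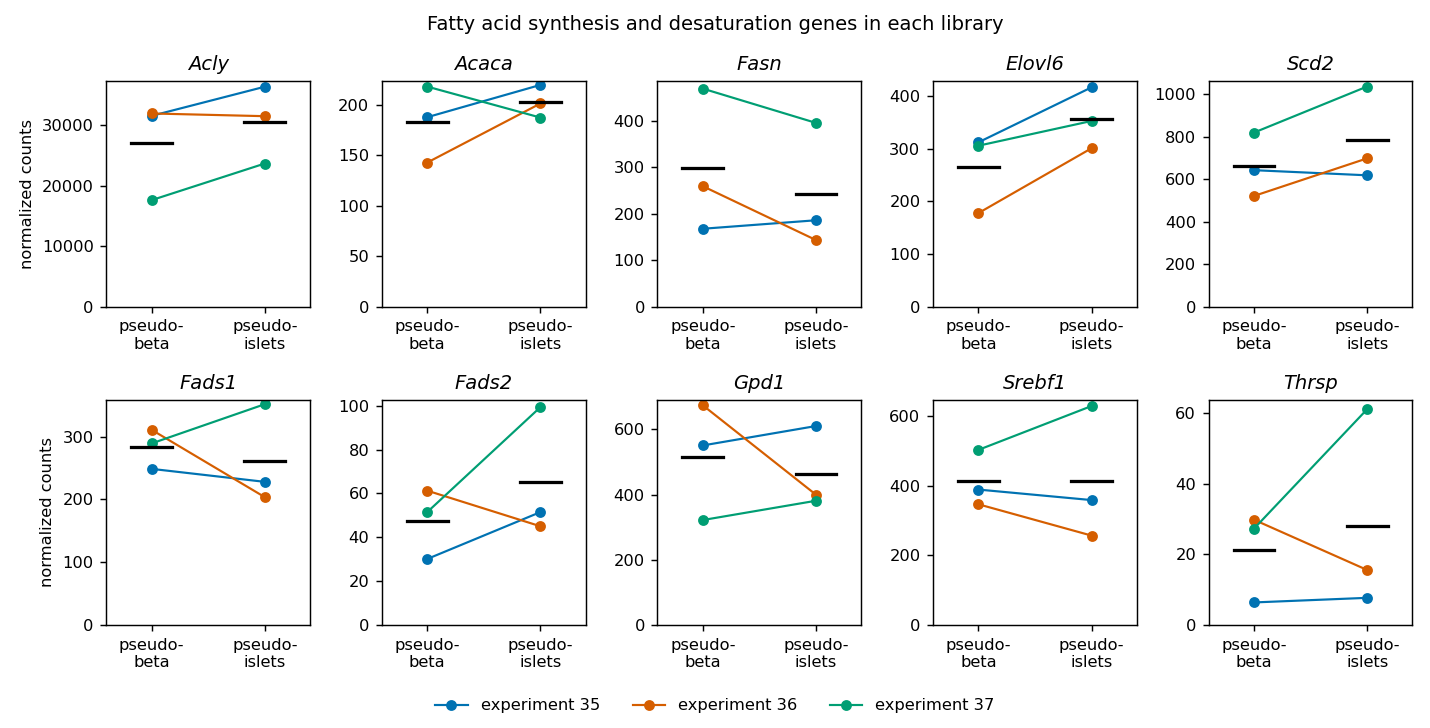
Normalized counts (vertical axis, linear and starting at 0) of each gene in the 6 libraries, with lines joining the 2 libraries of an experiment and black bars at the group means. The points of the groups overlap in all 10 panels, and experiment 37 sits lowest for Acly and highest for Fasn and Srebf1.

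The enzyme that supplies acetyl-CoA had the highest level of the 10 per kilobase of transcript (given below). In pseudo-islets, experiments 35, 36 and 37 gave 36384, 31504 and 23670.2 normalized counts of Acly, while pseudo-beta gave 31558, 31954 and 17608. Both libraries of experiment 37 were the lowest of their group, and the groups overlapped. The means were 30519 ± 6414 in pseudo-islets and 27040.1 ± 8171 in pseudo-beta (SD, n = 3), a log2 fold change of 0.20 (SE 0.23, adjusted p = 0.998). With the replicate block the 95% interval of the Acly difference was 0.03 to 0.38 and the adjusted p 0.349.

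Acaca and Fasn catalyse the committed step and the assembly of palmitate. In pseudo-islets Acaca reached 219.6, 201 and 187 normalized counts, while pseudo-beta gave 188, 143 and 218. Its order between the groups turned over in experiment 37, where pseudo-beta was the higher library. The log2 fold change of Acaca was 0.17 (SE 0.24). Fasn values were 186, 143 and 395 normalized counts for pseudo-islets against 167, 259 and 469 for pseudo-beta. Experiment 37 gave the highest Fasn library of both groups, and the lowest library of all 6 was the pseudo-islets of experiment 36. Its log2 fold change was -0.32 (SE 0.43), with a 95% interval of -1.27 to 0.64 that reached past a 1.5-fold change on both sides.

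Elovl6, the elongase that extends palmitate to stearate, was the one member with its pseudo-islets library higher in 3 of 3 experiments, a pattern that 33.1% of all genes showed in one direction or the other. In pseudo-islets the gene reached 417, 301 and 353 normalized counts, while pseudo-beta gave 312, 178 and 306. The lowest pseudo-islets library lay under the 2 highest pseudo-beta libraries. The Elovl6 log2 fold change of 0.46 (SE 0.26) was the highest of the 10, with an adjusted p of 0.969 and, with the replicate block, a 95% interval of 0.06 to 0.86 and an adjusted p of 0.353. The exact permutation p of Elovl6 was 0.3.

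Among the desaturases, Scd2 introduces the first double bond into saturated fatty acids, and Fads1 and Fads2 act on polyunsaturated ones. Scd2 values were 618, 698 and 1037 normalized counts for pseudo-islets against 643, 521 and 819.6 for pseudo-beta. The libraries of experiment 37 were the highest in both groups, and in experiment 35 the pseudo-beta library was slightly above the pseudo-islets one. Scd2 had a log2 fold change of 0.24 (SE 0.24). In pseudo-islets Fads1 reached 228, 204 and 352 normalized counts, while pseudo-beta gave 249, 311 and 289, so that the pseudo-islets held both the lowest and the highest library. The log2 fold change of Fads1 was -0.15 (SE 0.25). Fads2 had pseudo-islets libraries at 51.5, 45.0 and 99.4 normalized counts against 30.1, 61.3 and 51.5 for pseudo-beta. A single library, pseudo-islets of experiment 37, stood above the other 5. For Fads2 the log2 fold change was 0.42 (SE 0.43). Fads1 and Fads2, the neighbours on chromosome 19, had fitted differences of opposite sign, and neither was called.

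Gpd1, which makes the glycerol 3-phosphate backbone of glycerolipids, stood at 610.1, 399.5 and 381 normalized counts for pseudo-islets against 551, 674 and 322 for pseudo-beta. Its lowest library and its highest were both pseudo-beta. The log2 fold change of Gpd1 was -0.12 (SE 0.29).

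The regulators were not called either. In pseudo-islets Srebf1 reached 359, 257 and 629 normalized counts, while pseudo-beta gave 389, 347 and 503, with nearly equal means of 415 ± 192 and 413 ± 80.7 (SD, n = 3). In both groups experiment 37 was the highest and experiment 36 the lowest. The log2 fold change was -0.08 (SE 0.31) with a 95% interval of -0.76 to 0.60. Thrsp (Spot 14), a small protein tied to lipogenesis, was low throughout, at 7.70, 15.6 and 61.2 normalized counts for pseudo-islets against 6.40, 29.8 and 27.3 for pseudo-beta. It ranged widely in both groups, and its difference of 0.16 on the log2 scale had an SE of 0.82, the largest of the 10. At such low values a fold change on the log2(value + 1) scale is understated.

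**Figure D2:**
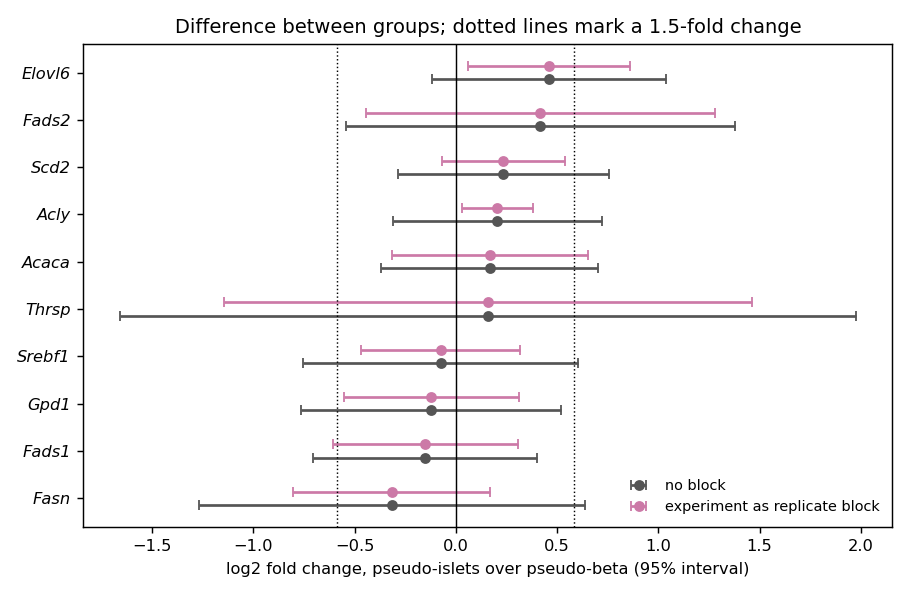
Log2 fold change of each gene, pseudo-islets over pseudo-beta (horizontal axis), with 95% intervals from limma without a block (dark) and with the experiment as replicate block (pink), and dotted lines at a 1.5-fold change either way. Without the block all 10 intervals cross 0, and with it those of Acly and Elovl6 lie above 0.

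Without the block, the 95% interval of every member went past a 1.5-fold change in at least one direction, so changes of that size were not excluded by these libraries. With the block the intervals of 4 members, Srebf1, Acly, Scd2 and Gpd1, lay within 1.5-fold both ways. The median standard error over all genes was 0.27 without the block and 0.21 with it.

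The direction of the set differed from one experiment to the next. In experiment 35, 7 of 10 members were higher in pseudo-islets, with a median difference of 0.18 on the log2 scale. Experiment 36 had 3 of 10 higher and a median of -0.43, from -0.89 for Thrsp to 0.76 for Elovl6. In experiment 37, 8 of 10 were higher, with a median of 0.30 and a highest value of 1.14 for Thrsp. Over all genes the medians were close to 0 in each experiment (-0.00262, -0.00198 and 0.0373). Of all genes, 49.7%, 49.7% and 54.4% were higher in pseudo-islets in experiments 35, 36 and 37. Each of these rests on 1 library against 1, so they carry no replicate check.

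**Figure D3:**
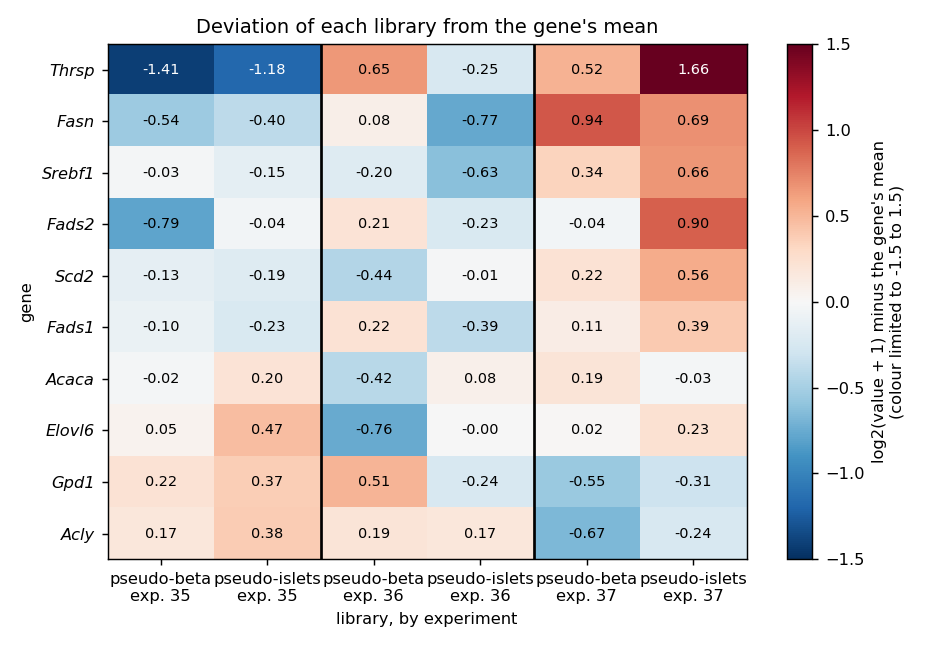
Log2(value + 1) of each gene (rows) in each library (columns, ordered by experiment) minus the gene's mean over 6 libraries, with red above and blue below the mean and colour limited to 1.5 either way. Both libraries of experiment 37 are above the mean for Thrsp, Fasn, Srebf1, Scd2, Fads1 and Elovl6 and below it for Gpd1 and Acly.

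Some members followed the experiment number in both groups. Fasn in experiment 37 was above the mean of experiments 35 and 36 by 1.27 on the log2 scale in pseudo-islets and by 1.17 in pseudo-beta. For Srebf1 these differences were 1.05 and 0.45, and for Scd2 0.66 and 0.50. Thrsp gave 2.37 and 0.91, Fads2 1.03 and 0.25, and Fads1 0.70 and 0.056. In pseudo-beta, however, the experiment 36 library of Thrsp, Fads2 and Fads1 was above that of 37. Acly was lower in experiment 37, with differences of -0.52 in pseudo-islets and -0.85 in pseudo-beta, and Gpd1 gave -0.37 and -0.92. The sign differed between the groups for Acaca (-0.17 in pseudo-islets and 0.41 in pseudo-beta) and Elovl6 (-0.0057 and 0.38). In an F test of the experiment term, chosen after these values had been seen, 2 of 10 members were called against 6.32% of all genes. They were Acly (adjusted p = 0.00391) and Fasn (adjusted p = 0.0276). Srebf1 was not called. Between its lowest and highest experiment, Fasn ranged 2.43-fold and Acly 1.66-fold. The F test called 0 of 10 members, and 0 of all genes, when limma used one prior variance for every gene in place of a trend on mean expression. Without the pseudo-beta library of experiment 37 the F test called 0 members and 72 of all genes. Acly alone was called without the pseudo-islets library of 37 (145 of all genes) or the pseudo-beta library of 35 (386). With 1 library of experiment 36 left out, 4 members were called, beside 1353 of all genes (pseudo-islets library left out) or 1152 (pseudo-beta library left out). What else differed between the experiments is not given in the sources used here.

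Levels were compared between genes per kilobase of transcript. Acly had 6502 normalized counts per kilobase on average, 38.0-fold above the next member, and ranked 103 among 13526 genes. Gpd1 followed at 171, Scd2 at 133, Srebf1 at 96.2, Fads1 at 78.6, Elovl6 at 52.3, Fasn at 26.8, Acaca at 20.3, Thrsp at 19.3 and Fads2 at 17.9. The lowest Acly library (3978) was far above the highest Gpd1 library (236). From Gpd1 downwards, the ranges over libraries of every pair of neighbours in this order overlapped. Acly alone made up 0.0958% to 0.195% of a library's normalized counts, while the other 9 together made up 0.0119% to 0.0178%.

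**Figure D4:**
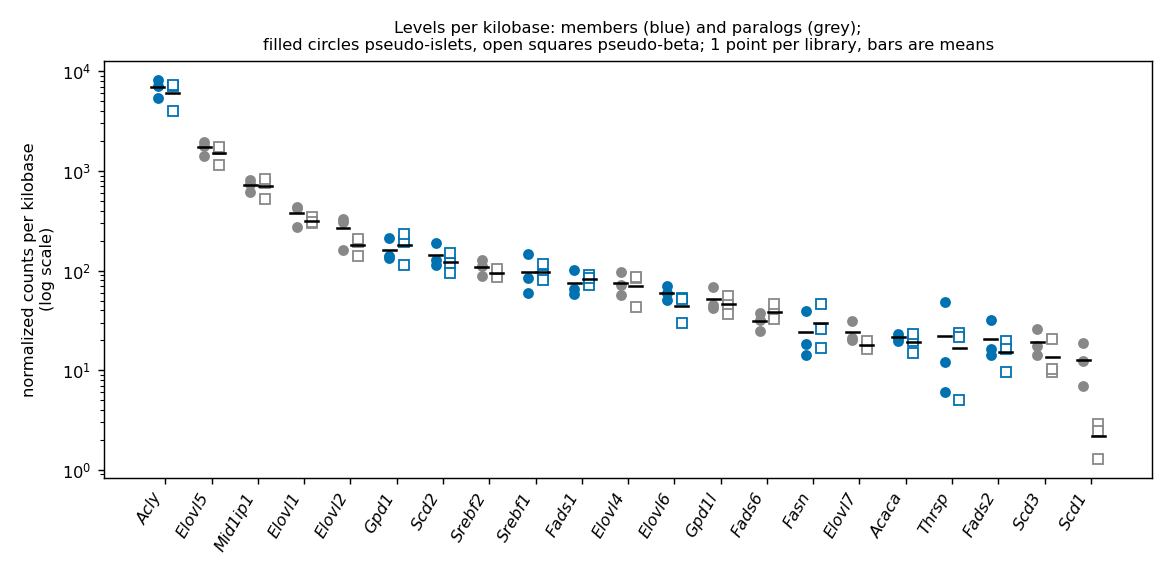
Normalized counts per kilobase on a log axis for the 10 members (blue) and their 11 paralogs in the table (grey), with 1 point per library, filled circles for pseudo-islets, open squares for pseudo-beta and bars at the means. Acly is highest, and Scd1 is the gene whose groups lie farthest apart.

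Paralogs of the members were examined beside them, and 11 of 15 were in the table (not Acacb, Scd4, Fads3 or Elovl3). None was called in either fit. In pseudo-islets Scd1, the desaturase next to Scd2, reached 60.4, 33.6 and 90.6 normalized counts, while pseudo-beta gave 6.25, 13.8 and 11.7. Its groups did not overlap, the log2 fold change was 2.38 (SE 0.54), and its adjusted p was 0.400 without the block and 0.0951 with it. At these low values the Scd1 log2 fold change was 1.73 with a pseudocount of 10. Under the block with 1 experiment left out, it was 2.03 without 35, 2.96 without 36 and 2.15 without 37. Per kilobase Scd1 stayed far below Scd2, at 12.7 ± 5.89 in pseudo-islets and 2.19 ± 0.811 in pseudo-beta against 144 ± 40.7 and 121 ± 27.5 for Scd2 (SD, n = 3). Scd3 had a log2 fold change of 0.55 (SE 0.42) with overlapping groups. How reads shared by these similar genes were divided by the authors' RSEM estimates cannot be seen in the table, so the split between them is uncertain.

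The elongase paralogs had small positive differences. Elovl5, which extends polyunsaturated fatty acids, was the most abundant at 1624 normalized counts per kilobase, with a log2 fold change of 0.19 (SE 0.19). Elovl2, which lengthens very long polyunsaturated chains, had 0.51 (SE 0.27 without the block, SE 0.13 and adjusted p = 0.159 with the block). Elovl7 had 0.41 (SE 0.31) with groups that did not overlap, Elovl1 0.23 (SE 0.21) and Elovl4 0.12 (SE 0.32). Fads6 was at -0.29 (SE 0.26), Gpd1l at 0.16 (SE 0.27), the Thrsp relative Mid1ip1 at 0.07 (SE 0.19) and Srebf2, which encodes the main regulator of cholesterol synthesis, at 0.21 (SE 0.19).

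Of 20 genes that control SREBP1 and its partners, all in the table, 8 were higher and 12 lower in pseudo-islets (median log2 fold change -0.12). Mlxipl (ChREBP) fell in the fit with the replicate block and was the only gene of that list called. Its values were 2123, 2153 and 1421 normalized counts for pseudo-islets against 2789.9, 4725 and 2231 for pseudo-beta. Every pseudo-beta library was above every pseudo-islets library. The log2 fold change was -0.73 (SE 0.13 and adjusted p = 0.0359 with the block, SE 0.26 and adjusted p = 0.872 without it). With the block, the call was lost without experiment 36 (adjusted p = 0.0713), without experiment 37 (0.0881) and with one prior variance (0.539). Insig1, which retains SREBP proteins in the endoplasmic reticulum, had a log2 fold change of 0.37 (SE 0.23), and Nr1h3 (LXR alpha), an activator of Srebf1 transcription, had 0.52 (SE 0.24). At the other end, Rxra had -0.47 (SE 0.38).

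In the list for precursor and NADPH supply, 10 of 12 genes in the table were higher in pseudo-islets and 2 were lower, with a median of 0.10 and none called. Idh1, a cytosolic source of NADPH, had a log2 fold change of 0.43 (SE 0.17 without the block, SE 0.089 and adjusted p = 0.0655 with the block). Acss2, which makes acetyl-CoA from acetate, had -0.44 (SE 0.20). Oxsm, of the mitochondrial pathway, had 0.60 (SE 0.41) and pyruvate carboxylase (Pcx) -0.29 (SE 0.28). The partners of the elongation cycle (10 of 11 in the table) had a median of 0.03 and none called, from -0.44 (SE 0.37) for Hacd1 and -0.39 (SE 0.24) for Cyb5r1 to 0.24 (SE 0.14) for Hsd17b12 and 0.28 (SE 0.20) for Hacd3. Glycerolipid synthesis (23 of 26) and fatty acid oxidation (23 of 26) had medians of 0.000187 and 0.00677, each with 12 higher, 11 lower and none called in either fit. The glycerolipid list also held lipase and lipid droplet genes and the mitochondrial Gpd2, so its median is not of synthesis alone. Acsl4 (0.47, SE 0.17) and Agpat3 (0.32, SE 0.17) were the highest named in glycerolipid synthesis on the log2 scale, with Lpin3 (-0.80, SE 0.48) and Agpat2 (-0.20, SE 0.46) at the other end. Among oxidation genes Ehhadh had 0.69 (SE 0.25) and Acads 0.33 (SE 0.29), Mlycd had -0.39 (SE 0.37), and Cpt1a, the transport step that malonyl-CoA inhibits, had -0.60 (SE 0.25).

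**Figure D5:**
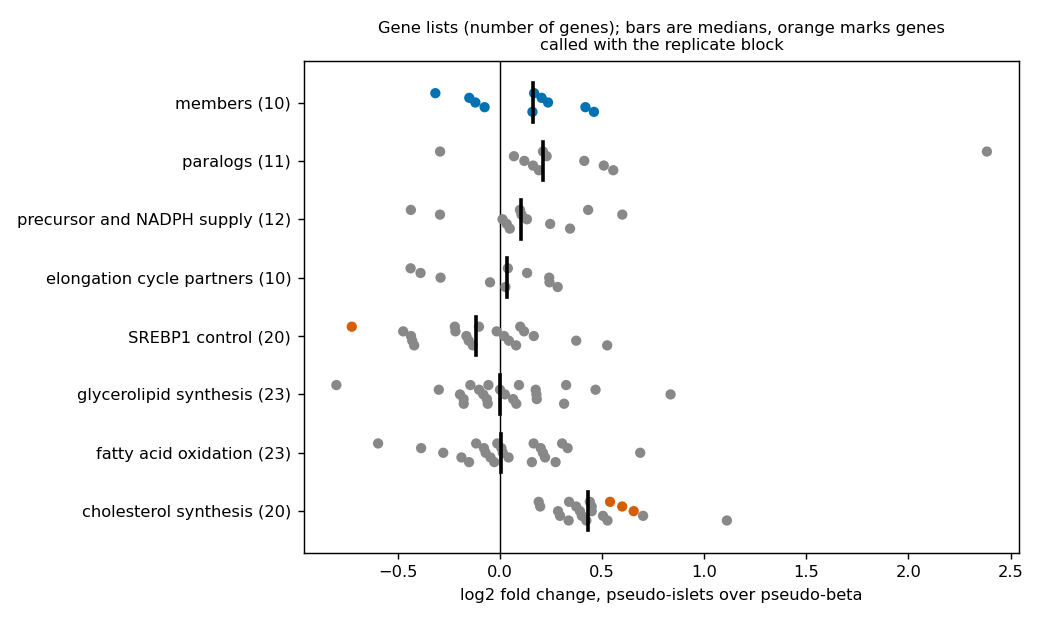
Log2 fold change, pseudo-islets over pseudo-beta (horizontal axis), of every gene of each list, with black bars at the medians and orange for genes called with the replicate block. The fatty acid synthesis genes (blue) lie on both sides of 0, and all 20 cholesterol synthesis genes lie above it.

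Cholesterol synthesis, the other branch under SREBP control, was measured in the same libraries. All 20 genes were in the table, all had positive fitted differences, from 0.19 to 1.11 on the log2 scale (median 0.43), and 17 were higher in 3 of 3 experiments. Of all 13535 genes, 6955 had positive fitted differences and 2443 were higher in 3 of 3 experiments. Without the block none of the 20 was called, and with it Fdps, Msmo1 and Idi1 rose, against 59 of all genes called higher in that fit. Farnesyl diphosphate synthase (Fdps) had 4329 ± 471 normalized counts in pseudo-islets and 2853 ± 211 in pseudo-beta (SD, n = 3). Its log2 fold change was 0.60 (SE 0.13 and adjusted p = 0.390 without the block, SE 0.081 and adjusted p = 0.00782 with the block). Msmo1 had 0.54 (adjusted p = 0.0208) and Idi1 0.65 (adjusted p = 0.0385) in that fit. With the block, leaving out experiment 35 or using one prior variance ended all 3 calls. Idi1 was also not called without experiment 36 (adjusted p = 0.0967), without 37 (0.157) or with rescaling (0.0514), and Fdps was not called without 37 (0.0521). Mvd, the largest fitted difference, was at 1.11 (SE 0.31) and was not called, and the smallest were Fdft1 at 0.20 (SE 0.15) and Dhcr7 at 0.19 (SE 0.34). The difference between the fatty acid and the cholesterol list was not tested.

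Exons of Srebf1 overlap those of Rai1 on the opposite strand, which had 44.0 to 98.2 normalized counts in these libraries. Exons of Elovl6 overlap Gm35986 and those of Gpd1 overlap Gm16537, and exons of Srebf1 and Scd2 also overlap the microRNA genes Mir6922 and Mir5114. Whether the counting used strand is not given in the sources used here, so reads of these pairs may not be separated.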

How the data were processed

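Beta-cell RNA from 3 pseudo-islets and 3 pseudo-beta samples was sequenced, and groups and experiment numbers were taken from the sample labels. The deposited signal is a normalized count for each gene and library. The authors' processing notes name STAR 2.7.6a, RSEM 1.3.1, DESeq2 1.26.0, R 3.6.3 and GRCm38. The authors' comparison columns hold a mean, a fold change with its error, a test statistic and p-values, and were not used. The values are not whole counts, and reads per library are unknown, so the standard errors give the precision.

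Values were tested as log2(value + 1) with limma 3.58.1 in R 4.3.3 (eBayes with a trend), two-sided, with Benjamini-Hochberg adjustment over 13535 genes. Where nothing says how the mice were pooled, p-values measure the spread between these samples. A second fit added experiment as the replicate block. Standard errors beside log2 fold changes are from the fit without the block unless stated. Deviations from the group means correlated at 0.119, 0.121 and 0.325 within experiments 35, 36 and 37 and at -0.203 to 0.0922 between them. Each value within an experiment passed the minimum of 0.1, but those of 35 and 36 were little above the highest between experiments. The correlations cannot establish the pairing, which rests on the experiment numbers in the labels. The members, lists and tests were chosen with earlier results of these data known. Genes named were every member and paralog and, in the other lists, genes called in either fit and the 2 highest and 2 lowest fold changes among those averaging 50 normalized counts or more. Marker genes are outside this rule. Coordinates and transcript lengths came from GENCODE M21, promoter windows from RefSeq (7 of 10 members matched). The fitting functions were run on simulated counts with known fold changes. That run checked the code and does not give the power or error rate in these libraries. Alternatives changed the pseudocount (0.1 or 10), filter, scaling, prior variance and libraries. Figures were drawn with matplotlib 3.10.9.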

Additional observations from a re-analysis of the deposited data

How the results depend on the processing

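No member was called under any alternative run, and the members' median log2 fold change stayed between 0.11 and 0.17 when pseudocount, filter, scaling, prior variance or block changed. Leaving out 1 library moved it between 0.01 and 0.20, and leaving out 1 experiment under the block between -0.09 and 0.17. Genes called among all 13535 numbered 8 in the fit without a block and 73 with the replicate block. They numbered 1 with a pseudocount of 0.1, 2 with rescaling, quantile normalization or one prior variance, 82 with the block and rescaling, and 0 with the block and one prior variance. Leaving out 1 library gave 0 to 13, and 1 experiment under the block 28 to 73. The replicate block changed no call among the members. Fitted directions turned for 6 members, each time with a library or experiment left out, and no member turned under another scaling. With 1 library or experiment left out, the log2 fold change ran from -0.42 to 0.22 for Srebf1, -0.080 to 0.38 for Acly, -0.74 to 0.073 for Fasn, -0.39 to 0.078 for Fads1, -0.63 to 0.79 for Thrsp and -0.43 to 0.20 for Gpd1. The F test between experiments, added after the values were seen, called 2 members, 3 with the filter or rescaling, 0 with one prior variance and 0 to 4 with 1 library left out. Over all genes it called 855, with 1170 under the filter, 992 under rescaling and 0 with one prior variance. With 1 library left out it called 72 to 1353 of all genes. The precision of 3 libraries per group, not a known read depth, limits these statements.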
